A study of Mus musculus with 8 samples.

Results

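LXR target and lipid handling genes were examined in 2 blood monocyte (MC) subsets of control and diabetic mice. The group held 10 genes, Nr1h3, Nr1h2, Abca1, Abcg1, Apoe, Lpl, Scd1, Scd2, Mylip and Plin2, out of 16486 genes with deposited log2 expression values, and all 10 symbols were found. The genes were picked by symbol for their place in lipid handling at a time when their values in all 8 libraries were already known. Their differences between subsets and mouse groups are therefore descriptions of these libraries, and no count over the 10 genes is evidence that lipid genes as a class behaved differently from other genes.

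The liver X receptors (LXR) are nuclear receptors that bind oxysterols, the oxidized forms of cholesterol, and act on DNA as pairs with retinoid X receptors. Nr1h3 encodes LXRα, which is found mainly in tissues with a high lipid turnover such as liver and macrophages, and Nr1h2 encodes the widely expressed LXRβ. When a cell is loaded with cholesterol, LXR raises the transporters Abca1 and Abcg1, which hand cholesterol to lipoproteins, and Apoe, an apolipoprotein that carries it away. LXR also raises Mylip, a ubiquitin ligase that lowers lipoprotein uptake, and Scd1 and Scd2, desaturases that make monounsaturated fatty acids. Lpl, the lipoprotein lipase, frees fatty acids from circulating triglycerides, and Plin2 coats the lipid droplets in which cells store neutral lipid.

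CT mice were C57/BL6. T1DM mice were C57/BL6 mice that had received streptozotocin (STZ), a toxin of the insulin-producing beta cells, intraperitoneally at 50 mg/kg per day on 5 days at 8 weeks of age. The T2DM model was the db/db mouse, homozygous for a mutation of the leptin receptor, which become obese and insulin resistant. All mice ate chow and were bled at 20 to 22 weeks of age. CD11b+Ly6G- blood cells were sorted into Ly6Chigh MCs, the inflammatory or classical subset, and Ly6Clow MCs, the patrolling or nonclassical subset, and RNA of 5 mice per group was pooled for bulk RNA-Seq. Each subset of CT mice was represented by 2 libraries, and that of T1DM or T2DM mice by 1. The methods describe duplicates for the diabetic pools as well, and their second libraries were not analysed here. As each CT pool was sequenced in duplicate, the spread between CT replicates may be technical and p-values measure only the spread between libraries. A difference between a diabetic model and CT rests on 1 library per subset and has no replicate of its own. Because a NextSeq 500 was used for CT and a HiSeq 4000 for the diabetic mice, effects of diabetes and of the sequencer cannot be told apart.

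Read counts per gene are not part of the table and the depth of each value is unknown, although the methods state 1 raw read total for all samples alike. Replicate libraries of CT MCs correlated at 0.968 across genes in both subsets, and their median absolute difference was 0.126 and 0.135 on the log2 scale where a gene averaged 5 or more. Between 151 and 667 genes had exactly equal values in a pair of CT or of diabetic libraries and 0 genes in a pair of 1 CT and 1 diabetic library, and none of the 10 genes had equal values in any pair. The mean of the 4 diabetic libraries minus that of the 4 CT libraries had an SD of 0.272 over genes, with 151 genes past 2-fold, against 0.743 and 1908 genes for the mean of 2 T2DM minus 2 T1DM libraries. Means of 4 libraries vary less than means of 2 by averaging alone, so these values are not on an equal footing. Values aligned between the sequencers would hold little of a difference that both diabetes models share and would tend to place T1DM and T2DM on opposite sides of CT. Whether they were aligned is not given in the sources used here and was not tested, and this limit bears on each T1DM or T2DM difference from CT below. The summed linear level of 7 classical monocyte markers was 5523 to 15115 in Ly6Chigh and 653 to 974 in Ly6Clow libraries, with the highest sum in T2DM Ly6Chigh MCs. That of 7 nonclassical markers was 665 to 1592 in Ly6Chigh and 1941 to 2555 in Ly6Clow libraries. Of these 7, Treml4, Cd300e, Ace, Spn and Eno3 were higher in every Ly6Clow than in every Ly6Chigh library, Nr4a1 overlapped, and Cx3cr1 was higher in Ly6Chigh MCs of CT (8.59 and 8.61 against 7.76 and 7.78) and T1DM mice (8.63 against 7.72). B cell markers moved with the sort as well. All 6 of them (among them Cd79a, Ms4a1 and Pax5) were in the table, none was near 0, and their summed level was 50.7 to 101 in Ly6Chigh and 1614 to 2169 in Ly6Clow libraries. NK cell markers (6 of 6) summed to 21.9 to 92.9 in Ly6Chigh and 130 to 714 in Ly6Clow libraries, with T2DM Ly6Clow MCs at 130.

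The genes lie on 7 mouse chromosomes in GRCm38 (mm10), with Scd1 at chr19:44394450-44407709 and Scd2 at chr19:44293676-44306864 in one cluster with Scd3 and Scd4. Abca1 spans chr4:53030789-53159988, Plin2 chr4:86626910-86670217, Apoe chr7:19696244-19701310 and Nr1h2 chr7:44549616-44553968. Nr1h3 spans chr2:91184061-91202829, Mylip chr13:45389742-45411940, Lpl chr8:68880555-68906932 and Abcg1 chr17:31057694-31117984. RefSeq promoters (250 bases before to 50 bases after the annotated start, GRCm38.p6) were found for Nr1h3, Nr1h2, Abca1, Apoe, Mylip and Plin2, while Abcg1, Lpl, Scd1 and Scd2 are named only. The promoters of Abca1 (chr4:53159846-53160145, minus strand) and Mylip (chr13:45389492-45389791, plus strand) are printed because both genes were lower in Ly6Chigh MCs of every mouse group. That of Plin2 (chr4:86670010-86670309, minus strand) is printed because its subset difference ran the other way. That of Apoe (chr7:19699139-19699438, minus strand, the most upstream of 3 annotated starts) is printed because Apoe was the gene called in T2DM. Capitals mark CCAAT boxes, written as ATTGG where the box lies on the other strand.
Abca1: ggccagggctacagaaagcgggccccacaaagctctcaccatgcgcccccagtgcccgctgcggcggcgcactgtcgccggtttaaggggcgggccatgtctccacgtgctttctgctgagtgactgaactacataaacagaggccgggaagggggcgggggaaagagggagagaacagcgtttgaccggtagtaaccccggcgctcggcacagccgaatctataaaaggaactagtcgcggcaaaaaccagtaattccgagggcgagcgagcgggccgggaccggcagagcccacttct
Mylip: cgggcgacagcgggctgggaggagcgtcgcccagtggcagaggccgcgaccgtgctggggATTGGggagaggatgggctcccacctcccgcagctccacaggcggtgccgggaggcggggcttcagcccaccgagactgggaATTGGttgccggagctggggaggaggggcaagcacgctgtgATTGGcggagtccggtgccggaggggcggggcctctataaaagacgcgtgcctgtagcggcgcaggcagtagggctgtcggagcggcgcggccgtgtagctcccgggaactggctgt
Plin2: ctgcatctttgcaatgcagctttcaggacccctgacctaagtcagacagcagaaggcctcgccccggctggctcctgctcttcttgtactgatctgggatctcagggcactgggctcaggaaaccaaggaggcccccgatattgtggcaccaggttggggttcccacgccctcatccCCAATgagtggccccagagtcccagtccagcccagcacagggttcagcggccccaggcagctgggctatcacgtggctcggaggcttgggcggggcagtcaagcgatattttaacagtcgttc
Apoe: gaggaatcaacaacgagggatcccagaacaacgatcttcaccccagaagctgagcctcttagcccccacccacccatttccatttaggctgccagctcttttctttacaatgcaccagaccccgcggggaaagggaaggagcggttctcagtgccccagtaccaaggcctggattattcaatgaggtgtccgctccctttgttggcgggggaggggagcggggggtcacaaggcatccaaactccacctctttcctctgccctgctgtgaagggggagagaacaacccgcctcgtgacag

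Both strands of each promoter were searched for the LXR element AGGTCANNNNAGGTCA (direct repeats 4 bases apart), for AGGTCANAGGTCA (repeats 1 base apart), each with at most 1 mismatch per half-site, for the sterol element TCACNCCAC and for CCAAT. Mylip held 3 CCAAT boxes, at positions -190 to -186, -108 to -104 and -67 to -63 from its start, and Plin2 held 1 box at -73 to -69. CCAAT occurs in 37.4% of all 32851 RefSeq promoters of this length. At this mismatch limit the LXR element was not matched in the windows of the 6 genes, as in all but 1.75% of promoters (an exact repeat occurs in 0.0152%). Neither was the 1-base repeat (2.4% of promoters) or the sterol element (1.24%). The search passes over LXR elements with more mismatches, so the windows may still hold them. Abca1 holds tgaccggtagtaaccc, on the other strand a repeat 4 bases apart with more than 1 mismatch in a half-site. Sequence outside these windows was not searched.

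**Figure D1:**
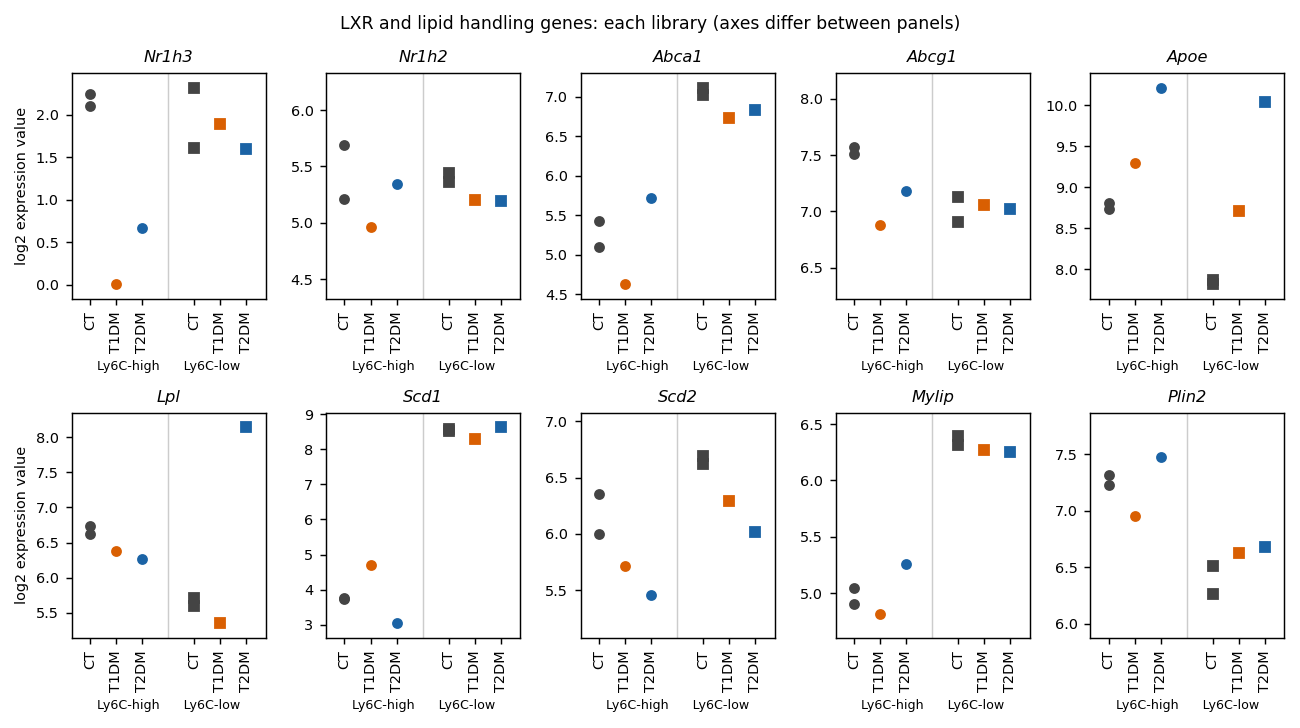
Log2 expression value (y axis, a different range in each panel) of the 10 genes in each of the 8 libraries, with Ly6Chigh MCs as circles on the left and Ly6Clow MCs as squares on the right of each panel, in CT (grey, 2 libraries), T1DM (orange) and T2DM (blue) mice. Abca1, Scd1, Mylip and Plin2 have subsets that do not overlap, and Lpl stands at 8.14 in T2DM Ly6Clow MCs against 5.35 to 6.74 in the other libraries.

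The receptors themselves differed little between the subsets of CT mice. Nr1h2 had log2 values of 5.22 and 5.69 in CT Ly6Chigh, 4.96 in T1DM Ly6Chigh and 5.35 in T2DM Ly6Chigh MCs, against 5.36 and 5.44 in CT Ly6Clow, 5.20 in T1DM Ly6Clow and 5.20 in T2DM Ly6Clow MCs. The 4 libraries of one subset overlapped those of the other, and the CT Ly6Chigh replicates alone were 0.48 apart. The log2FC of Ly6Chigh against Ly6Clow was 0.054 ± 0.20 (SE) in CT MCs, a sign that turned under quantile normalization (-0.067). Here and in the results that follow, fewer cells of a type and less RNA per cell cannot be told apart in bulk libraries.

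Nr1h3 was a gene of low value, at 2.24 and 2.11 in CT Ly6Chigh, 0.01 in T1DM Ly6Chigh and 0.67 in T2DM Ly6Chigh MCs, against 1.61 and 2.31 in CT Ly6Clow, 1.89 in T1DM Ly6Clow and 1.59 in T2DM Ly6Clow MCs. Both diabetic Ly6Chigh libraries lay under every other library, while the diabetic Ly6Clow libraries lay inside the CT Ly6Clow pair (T1DM) or just below it (T2DM). T1DM Ly6Chigh MCs differed from the CT mean by -2.16 and T2DM Ly6Chigh MCs by -1.50 on the log2 scale, and with 1 added before the log2 the differences were -1.46 and -1.09. Over both subsets, limma with Benjamini-Hochberg adjustment gave a log2FC of -1.12 ± 0.51 (SE, adjusted p = 1.00) for T1DM and -0.94 ± 0.51 (adjusted p = 0.707) for T2DM against CT. The subset difference of diabetic mice minus that of CT mice was -1.61 ± 0.62 (limma, adjusted p = 0.734).

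The cholesterol exporter Abca1 was higher in Ly6Clow MCs. It had log2 values of 5.10 and 5.43 in CT Ly6Chigh, 4.63 in T1DM Ly6Chigh and 5.72 in T2DM Ly6Chigh MCs, against 7.03 and 7.11 in CT Ly6Clow, 6.73 in T1DM Ly6Clow and 6.84 in T2DM Ly6Clow MCs. Every Ly6Clow library lay above every Ly6Chigh library. In CT mice the log2FC of Ly6Chigh against Ly6Clow was -1.81 ± 0.15 (SE, 3.50-fold lower), called by limma at an adjusted p of 0.00985. Calls required an adjusted p under 0.01 with an absolute log2FC above 1, which 581 genes (3.52%) passed in CT MCs. With all 8 libraries and mouse group as covariate it was -1.71 ± 0.16 (limma, adjusted p = 8.96e-05), in a test that called 12.1% of all genes. The subset difference was -2.10 within T1DM and -1.12 within T2DM mice.

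Abcg1, the other exporter, was not called between the subsets. It was measured at log2 values of 7.51 and 7.57 in CT Ly6Chigh, 6.88 in T1DM Ly6Chigh and 7.18 in T2DM Ly6Chigh MCs, against 7.13 and 6.90 in CT Ly6Clow, 7.06 in T1DM Ly6Clow and 7.02 in T2DM Ly6Clow MCs. The CT Ly6Chigh pair was the highest, and the diabetic Ly6Chigh libraries fell among or beside the Ly6Clow libraries. Its log2FC of Ly6Chigh against Ly6Clow was 0.52 ± 0.10 (SE) in CT MCs and was not called (limma, adjusted p = 0.0468). It was -0.18 within T1DM and 0.16 within T2DM mice, the latter turning to -0.08 under quantile normalization. The diabetic minus CT subset difference was -0.53 ± 0.21 (limma, adjusted p = 0.743).

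Apoe had its highest levels in T2DM MCs of both subsets. Its log2 values were 8.81 and 8.73 in CT Ly6Chigh, 9.29 in T1DM Ly6Chigh and 10.21 in T2DM Ly6Chigh MCs, against 7.82 and 7.86 in CT Ly6Clow, 8.71 in T1DM Ly6Clow and 10.04 in T2DM Ly6Clow MCs. In order, the T2DM libraries came first, then T1DM Ly6Chigh, the CT Ly6Chigh pair together with T1DM Ly6Clow, and the CT Ly6Clow pair. T1DM Ly6Clow lay just under the lower CT Ly6Chigh library, by less than the 0.074 between those replicates.

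Within CT mice Apoe was 0.93 ± 0.050 (SE) higher in Ly6Chigh than in Ly6Clow MCs on the log2 scale, under the 2-fold limit although the adjusted p was 0.00590 (limma). Against CT, Apoe was 1.44 higher in T2DM Ly6Chigh and 2.20 higher in T2DM Ly6Clow MCs, or 2.72-fold and 4.58-fold. Over both subsets the log2FC of T2DM against CT was 1.82 ± 0.15 (SE), called by limma at an adjusted p of 0.00130, where 49 genes (0.297%) were called in all and 0.133% were called higher. Without the variance trend this adjusted p was 0.0428, and over all alternatives it ran from 0.000494 to 0.0428. T1DM against CT gave 0.70 ± 0.15 (limma, adjusted p = 0.461), from 0.52 in Ly6Chigh and 0.87 in Ly6Clow MCs, each larger than the gap between CT replicates. T2DM against T1DM, both run on the same sequencer, gave 1.12 ± 0.18 (limma, adjusted p = 0.0173), which was not called. The comparisons of T1DM and of T2DM with CT share the CT libraries.

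The subset difference of Apoe was 0.58 within T1DM and 0.17 within T2DM mice, and the latter turned to -0.34 under quantile normalization. Macrophages make much Apoe, and 9 of 10 macrophage markers were in the table. Their summed linear level was 231 to 291 in Ly6Chigh libraries, with T2DM at 287, while Ly6Clow libraries had 163 and 201 (CT), 243 (T1DM) and 259 (T2DM). Adgre1, which monocytes express too, led this sum at 7.41 to 8.01 in the T2DM libraries on the log2 scale. The other markers did not move together. Mrc1 was at 5.86 in T2DM Ly6Clow MCs, the highest of the 8 libraries, against 4.45 and 4.61 in CT Ly6Clow MCs, but at 3.34 in T2DM Ly6Chigh MCs, the lowest. Cd163 was at 3.51 in T2DM Ly6Clow MCs against 3.04 and 3.34 in CT and 3.80 in T1DM Ly6Clow MCs. C1qc was at 1.41 in T2DM Ly6Clow MCs against 1.98 and 2.11 in CT. In Ly6Chigh MCs C1qc was at 2.19 in T2DM against 1.36 and 1.13 in CT. C1qb was at 2.71 in T2DM Ly6Clow MCs against 2.81 and 2.68 in CT, and Spic at 2.66 against 2.58 and 1.92. C1qb (4.38) and C1qc (3.46) were highest in T1DM Ly6Clow MCs. C1qa, Vsig4 and Timd4 were between -1.94 and 0.45 in the T2DM libraries. The part of macrophage RNA in the Apoe level was not tested.

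Mylip, the ubiquitin ligase that lowers lipoprotein uptake, was higher in Ly6Clow MCs like Abca1. Its levels were 5.04 and 4.91 in CT Ly6Chigh, 4.81 in T1DM Ly6Chigh and 5.25 in T2DM Ly6Chigh MCs, against 6.39 and 6.31 on the log2 scale in CT Ly6Clow, 6.27 in T1DM Ly6Clow and 6.25 in T2DM Ly6Clow MCs. Every Ly6Clow library was above every Ly6Chigh library, and the 4 Ly6Clow libraries, from 3 mouse groups, lay within 6.25 to 6.39. The log2FC of Ly6Chigh against Ly6Clow was -1.38 ± 0.10 (SE, 2.60-fold lower) in CT MCs, called by limma at an adjusted p of 0.00836. It was -1.46 within T1DM and -0.99 within T2DM mice, and -1.30 ± 0.12 over all libraries (limma, adjusted p = 7.54e-05).

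Lpl was higher in Ly6Chigh than in Ly6Clow MCs of CT and T1DM mice but not of T2DM mice. It stood at log2 values of 6.62 and 6.74 in CT Ly6Chigh, 6.38 in T1DM Ly6Chigh and 6.27 in T2DM Ly6Chigh MCs, against 5.60 and 5.71 in CT Ly6Clow, 5.35 in T1DM Ly6Clow and 8.14 in T2DM Ly6Clow MCs. Without T2DM the Ly6Chigh libraries were all above the Ly6Clow libraries, and the T2DM Ly6Clow library was above them all. The log2 difference of Ly6Chigh minus Ly6Clow was 1.02 ± 0.094 (SE) for CT mice, 1.03 for T1DM and -1.87 for T2DM mice.

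In CT MCs the difference was just past 2-fold, and its adjusted p of 0.0121 (limma) missed the limit, which it passed at 0.00396 when only genes averaging 1 or more on the log2 scale were tested. Over 8 libraries the log2FC was 0.30 ± 0.44 (limma, adjusted p = 0.640), and without the T2DM libraries it was 1.02 ± 0.10 (adjusted p = 0.000486) and was called. T2DM Ly6Clow MCs were 2.49 higher than CT Ly6Clow MCs (5.61-fold), while T1DM Ly6Clow MCs differed by -0.31, T1DM Ly6Chigh MCs by -0.30 and T2DM Ly6Chigh MCs by -0.41. All these were larger than the gaps of 0.13 and 0.11 between CT replicates. The high T2DM value rests on 1 library, and the pooled test of T2DM against CT gave 1.04 ± 0.53 (limma, adjusted p = 0.669).

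In the T2DM Ly6Clow library that carried the high Lpl value, sums of other markers stood apart as well. The 4 of 6 neutrophil markers in the table summed to 74.0 there and to 12.4 to 27.2 in the other libraries. Most of this sum was Cxcr2, at a log2 value of 5.78 against 2.79 to 4.19 elsewhere. Ngp was also highest there, at 3.49. Ltf (1.76) was lower than in T1DM Ly6Chigh MCs (2.71), and Mmp9 (2.17) lower than in T2DM Ly6Chigh MCs (3.41). Classical monocyte markers summed to 974 there and to 653 to 668 in the other Ly6Clow libraries. Against those libraries, sums were also higher for dendritic cell (207 against 95.5 to 173) and B cell markers (2169 against 1614 to 1795). They were lower for NK cell (130 against 523.5 to 714), platelet (233 against 346 to 833) and erythroid markers (13308 against 19210 to 25066). The part of these cells in the Lpl value was not tested.

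**Figure D2:**
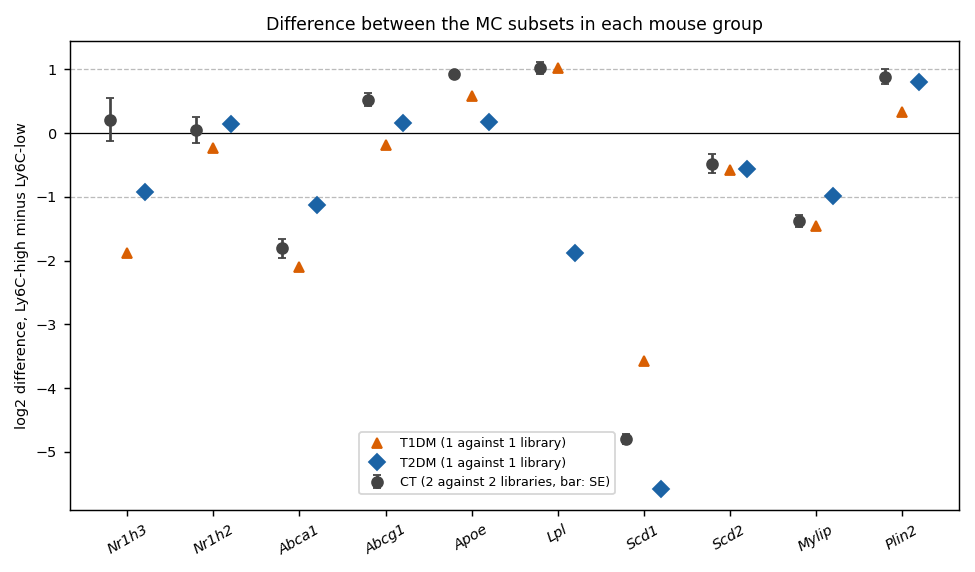
Log2 difference of Ly6Chigh minus Ly6Clow MCs (y axis) for the 10 genes in CT (grey circles, 2 against 2 libraries, bars are the limma SE), T1DM (orange triangles) and T2DM (blue diamonds, each 1 against 1 library). Dashed lines mark 2-fold, Scd1 lies between -5.58 (T2DM) and -3.58 (T1DM), and Lpl moves from 1.02 in CT to -1.87 in T2DM mice.

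Scd1 had the largest subset difference of the 10 genes in every mouse group. Its log2 values were 3.73 and 3.75 in CT Ly6Chigh, 4.71 in T1DM Ly6Chigh and 3.05 in T2DM Ly6Chigh MCs, against 8.57 and 8.51 in CT Ly6Clow, 8.29 in T1DM Ly6Clow and 8.62 in T2DM Ly6Clow MCs. The Ly6Clow libraries lay close together and far above the Ly6Chigh libraries, which spread from 3.05 to 4.71. The log2FC of Ly6Chigh against Ly6Clow was -4.80 ± 0.076 (SE, 27.8-fold lower) in CT MCs, called by limma at an adjusted p of 0.00178, and -4.69 ± 0.26 over all libraries (limma, adjusted p = 5.15e-06).

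The Scd1 values ran beside those of B cell genes. Of all genes that averaged 3 or more on the log2 scale, the nearest to Scd1 over the 8 libraries was Cxcr5, the chemokine receptor of B cell follicles, and also near was Fcrla, a B cell Fc receptor-like protein. Nearness was the Euclidean distance of log2 values centred on each gene's mean, which was 0.63 for Cxcr5 and 0.77 for Fcrla. Cxcr5 was at 2.13 and 2.40 in CT Ly6Chigh, 3.26 in T1DM Ly6Chigh and 2.13 in T2DM Ly6Chigh MCs, against 7.15 and 6.98 in CT Ly6Clow, 7.18 in T1DM Ly6Clow and 7.06 in T2DM Ly6Clow MCs. Scd1 itself ranged over 5.58 log2 units, whereas Scd1 minus Cxcr5 stayed between 0.92 and 1.60. T1DM was the highest of the Ly6Chigh libraries for both genes. Cxcr5 was picked as the nearest gene in these same libraries, so a narrow gap and a like order follow from that choice. Against the summed level of the 6 B cell markers, Scd1 had a Pearson r of 0.994 over the 8 libraries, which share subset, sort and pool. The next highest r was 0.989 with the sum of 3 eosinophil markers, led by Il5ra in Ly6Clow MCs. That sum ranged over 3.78, and Scd1 minus that sum over 2.42. The stated sort was on CD11b, Ly6G and Ly6C and names no B cell antigen. Which cells the Scd1 RNA came from was not tested.

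The subset differences of the other members were compared with the same markers. The difference of a member and the log2 B cell sum ranged over 0.80 for Scd1, 4.30 for Abca1, 4.43 for Mylip and 5.14 for Scd2. That sum itself ranged over 5.42, but Abca1 over 2.48, Mylip over 1.58 and Scd2 over 1.24. Members of small range must differ widely from such a sum, whatever their source. The part of B cell RNA in these members was not tested. Mylip (r = 0.954) and Abca1 (r = 0.897) were higher in the same subset as the B cell markers, over a smaller range. Their nearest genes were Ripor2, Dnajc9 and S1pr4 for Mylip, and Iqsec1, Tspan32 and Hdac9 for Abca1, at distances of 0.27 to 0.62.

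**Figure D3:**
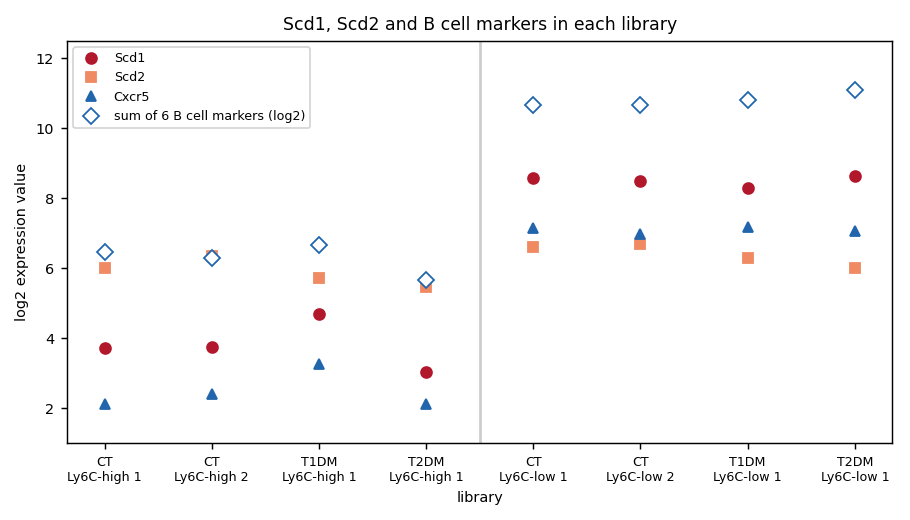
Log2 expression value (y axis) of Scd1 (red circles), Scd2 (orange squares) and Cxcr5 (blue triangles) and the log2 of the summed level of 6 B cell markers (open diamonds) in each of the 8 libraries (x axis), Ly6Chigh on the left of the line and Ly6Clow on the right. Scd1 and Cxcr5, picked as its nearest gene in these same libraries, keep a gap of 0.92 to 1.60, while Scd2 stays between 5.46 and 6.70.

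Scd2, a desaturase of the same gene cluster, was closer between the subsets. Its level on the log2 scale was 6.00 and 6.36 in CT Ly6Chigh, 5.72 in T1DM Ly6Chigh and 5.46 in T2DM Ly6Chigh MCs, against 6.62 and 6.70 in CT Ly6Clow, 6.29 in T1DM Ly6Clow and 6.02 in T2DM Ly6Clow MCs. Within each mouse group Ly6Clow was the higher, but the CT Ly6Chigh pair overlapped the diabetic Ly6Clow libraries. The subset log2FC was -0.48 ± 0.15 in CT MCs (limma, adjusted p = 0.114) and -0.52 ± 0.11 over 8 libraries (limma, adjusted p = 0.00699, under the 2-fold limit). Scd2 was lower than both CT libraries of its subset in all 4 diabetic libraries, by -0.46 and -0.36 in T1DM and by -0.72 and -0.64 in T2DM Ly6Chigh and Ly6Clow MCs, with limma giving -0.68 ± 0.14 (adjusted p = 0.0719) for T2DM against CT.

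The Scd genes lie within 204422 bases of chromosome 19 in the order Scd3, Scd2, Scd4 and Scd1. Scd3 had low log2 values of 1.35 to 2.62 and Scd4 of -0.82 to 1.85 in the 8 libraries, and neither was called between the subsets (limma, adjusted p = 0.280 and 0.0247 over 8 libraries). Of the 31-base sequences in Scd1 transcripts, 8.14% occur in another gene, mainly Scd3 (5.84%), and 6.81% of those of Scd2 do. Reads from shared stretches could be split between these genes.

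Plin2, the droplet coat, was higher in Ly6Chigh MCs. Log2 values of Plin2 were 7.23 and 7.32 in CT Ly6Chigh, 6.96 in T1DM Ly6Chigh and 7.48 in T2DM Ly6Chigh MCs, against 6.26 and 6.51 in CT Ly6Clow, 6.63 in T1DM Ly6Clow and 6.68 in T2DM Ly6Clow MCs. The subsets did not overlap. The log2FC of Ly6Chigh against Ly6Clow was 0.89 ± 0.11 (SE) in CT MCs (limma, adjusted p = 0.0215) and 0.73 ± 0.12 over 8 libraries (limma, adjusted p = 0.00197), both under the 2-fold limit. It was 0.33 within T1DM and 0.81 within T2DM mice. Plin2 had an r of 0.949 with the log2 sum of classical monocyte markers over the 8 libraries, and 5.05% of its 31-base sequences are shared, mainly with Gm12551.

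Of the 10 genes, 3 were called between the subsets of CT mice, all lower in Ly6Chigh MCs (Abca1, Scd1 and Mylip), where 1.43% of all genes were called lower. The same 3 were called over 8 libraries, where 6.76% of all genes were called lower, and 0 were called higher in either test. The median log2FC over the 10 genes was 0.13 in CT MCs and -0.26 over 8 libraries, beside -0.087 and -0.082 over all genes. The 4 Ly6Chigh and 4 Ly6Clow libraries did not overlap for 4 of the 10 genes, and for 32.8% of all genes. Within T1DM mice 5 members were past 2-fold (Lpl higher and Nr1h3, Abca1, Scd1 and Mylip lower in Ly6Chigh MCs), against 27.9% of all genes (16.8% lower). Within T2DM mice it was 3 members, all lower (Abca1, Lpl and Scd1), against 29.1% of all genes (17.8% lower). The CT calls were lost when any 1 of the 4 CT libraries was left out (adjusted p of 0.0633 to 0.123 for these 3 genes) and without the variance trend (0.0167 to 0.0270), settings under which 0 of all genes were called.

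**Figure D4:**
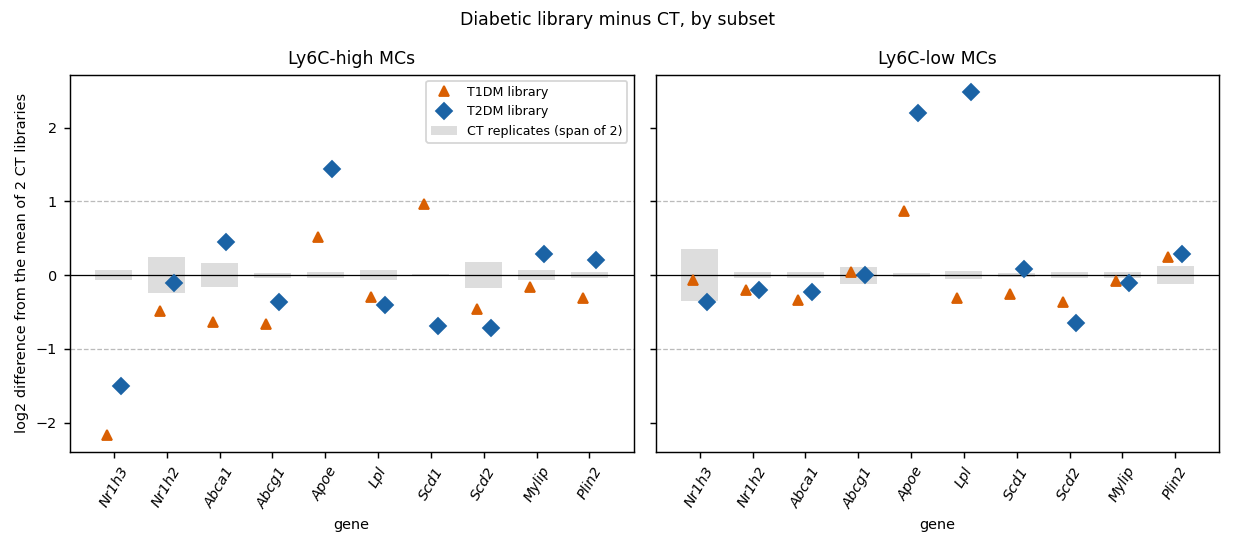
Log2 difference of each diabetic library from the mean of the 2 CT libraries of its subset (y axis) for the 10 genes, in Ly6Chigh (left) and Ly6Clow MCs (right), with T1DM as orange triangles and T2DM as blue diamonds. Grey boxes span the 2 CT replicates and dashed lines mark 2-fold; past it lie Nr1h3 in both diabetic Ly6Chigh libraries, Apoe in both T2DM libraries and Lpl in T2DM Ly6Clow MCs.

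Between mouse groups, few of the 10 genes moved past 2-fold. In T1DM, 1 gene (Nr1h3, lower) did so in Ly6Chigh MCs, where 10.1% of all genes did (4.94% lower), and 0 in Ly6Clow MCs, where 8.81% did. In T2DM, 2 genes did so in Ly6Chigh MCs (Apoe higher and Nr1h3 lower), against 13.8% of all genes (5.96% higher and 7.89% lower), and 2 in Ly6Clow MCs (Apoe and Lpl, both higher), against 10.8% (5.09% higher). By limma over both subsets, Apoe was the only 1 of the 10 called in T2DM against CT. None of the 10 was called in T1DM against CT, where limma called 0.0% of all genes, 3 of the 10 (Apoe, Abca1 and Scd2) had an unadjusted p under 0.05 and 3.34% of all genes did. The small shared difference of diabetic and CT libraries given above, with 151 genes past 2-fold, bears on this count. None was called in T2DM against T1DM either, where 0.588% of all genes were called and 2 of the 10 had an unadjusted p under 0.05 (14.3% of all genes). The test of the subset difference in diabetic against CT mice called 0 genes in all (0.0%), with 2 of the 10 (Nr1h3 and Abcg1) and 6.58% of all genes at an unadjusted p under 0.05.

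T2DM and T1DM Ly6Chigh MCs were compared on the same sequencer. Abca1 was 1.09 higher and Scd1 fell by 1.66 in T2DM against T1DM on the log2 scale, the 2 members past 2-fold there, against 19.3% of all genes (8.46% higher and 10.8% lower). In Ly6Clow MCs Lpl was 2.79 and Apoe 1.32 higher in T2DM than in T1DM, again 2 members, against 15.3% of all genes (7.29% higher). The B cell sums of these Ly6Chigh libraries were 50.7 in T2DM and 101 in T1DM. In the CT Ly6Chigh libraries the sums were 89.2 and 77.8, with Scd1 at 3.73 and 3.75 against 4.71 in T1DM. The part of B cell RNA in the Scd1 difference was not tested.

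To set the 10 genes among others of their pathway, 6 lists with 69 further genes were taken from textbook knowledge, of which 61 were in the table. In CT MCs limma called 8 of the 61 higher and 3 lower in Ly6Chigh MCs, against 2.1% and 1.43% of all genes. Over 8 libraries it called 12 higher and 6 lower, against 5.37% and 6.76%. The median log2FC of the 61 genes was 0.30 in CT MCs and 0.20 over 8 libraries. All 11 calls in CT MCs were lost without the variance trend and without any 1 CT library, where no gene was called.

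Among the receptors, the LXR partner Rxra was 1.84 ± 0.14 (SE) higher in CT Ly6Chigh MCs on the log2 scale (limma, adjusted p = 0.00874). It stood at 6.58 to 6.83 in the 4 Ly6Chigh and 4.58 to 4.93 in the 4 Ly6Clow libraries. Pparg, the fatty acid-sensing receptor, went the other way by -1.77 ± 0.14 (limma, adjusted p = 0.00918), at 2.16 to 3.60 in Ly6Chigh and 5.24 to 5.84 in Ly6Clow libraries. The remaining 6 receptors and cofactors of the list in the table, Srebf1 and Srebf2 among them, were not called in either test of the subsets. These tests called 3.52% (CT) and 12.1% (8 libraries) of all genes. Srebf2 was lower in Ly6Chigh MCs over 8 libraries at -0.82 ± 0.16 (limma, adjusted p = 0.00507), under the 2-fold limit.

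Of 13 genes of lipoprotein uptake and cholesterol handling, 6 were called higher and 1 lower in CT Ly6Chigh MCs. Over all genes 2.1% were called higher and 1.43% lower there, and the list had a median log2FC of 1.13. Npc2, which moves cholesterol out of lysosomes, was 2.33 ± 0.11 higher, and Soat1, which esterifies it for storage, 1.75 ± 0.039 higher. Cyp27a1, which makes the LXR ligand 27-hydroxycholesterol, was 1.85 ± 0.10 higher. Lrp1, a lipoprotein receptor, was 1.68 ± 0.059 higher and the exporter Abca7 1.13 ± 0.075 higher. Cd36, a fatty acid receptor, was lower at -2.29 ± 0.17. These values are log2FC ± SE from limma, with adjusted p between 0.00224 and 0.00876. Over 8 libraries Scarb1 (1.35) and Nceh1 (1.19) were called higher too, and Abca7 (0.99) fell under the 2-fold limit.

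Other LXR targets were split. Smpdl3a, a phosphodiesterase, was called higher in CT Ly6Chigh MCs at 1.23 ± 0.053 (limma, adjusted p = 0.00498), the single call among 15 listed targets there. Of all genes 3.52% were called in this test. Over 8 libraries Apoc1 (2.20) was called higher, and Pltp, the phospholipid transfer protein (-1.34), and Fasn, the fatty acid synthase (-1.18), lower. Apoc1 lies in the cluster of Apoe, was low, and its CT Ly6Clow replicates stood at 0.93 and -1.45. Among carriers of fatty acids, Fabp4 was lower in Ly6Chigh MCs (-2.90 ± 0.15 in CT, limma, adjusted p = 0.00578) and Fabp5 higher (2.03 ± 0.26 over 8 libraries, limma, adjusted p = 0.000419). Of the lipid droplet genes, 0 of 11 were called in CT MCs (3.52% of all genes), where 5 had an unadjusted p under 0.05 (37.7% of all genes). Over 8 libraries limma called Dgat2, which makes triglyceride, higher (1.29) and G0s2, an inhibitor of its breakdown, lower (-2.61). G0s2 was low, at -2.17 to 0.69 in Ly6Chigh and 1.69 to 2.51 in Ly6Clow libraries, with CT Ly6Chigh replicates at -0.42 and 0.69.

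**Figure D5:**
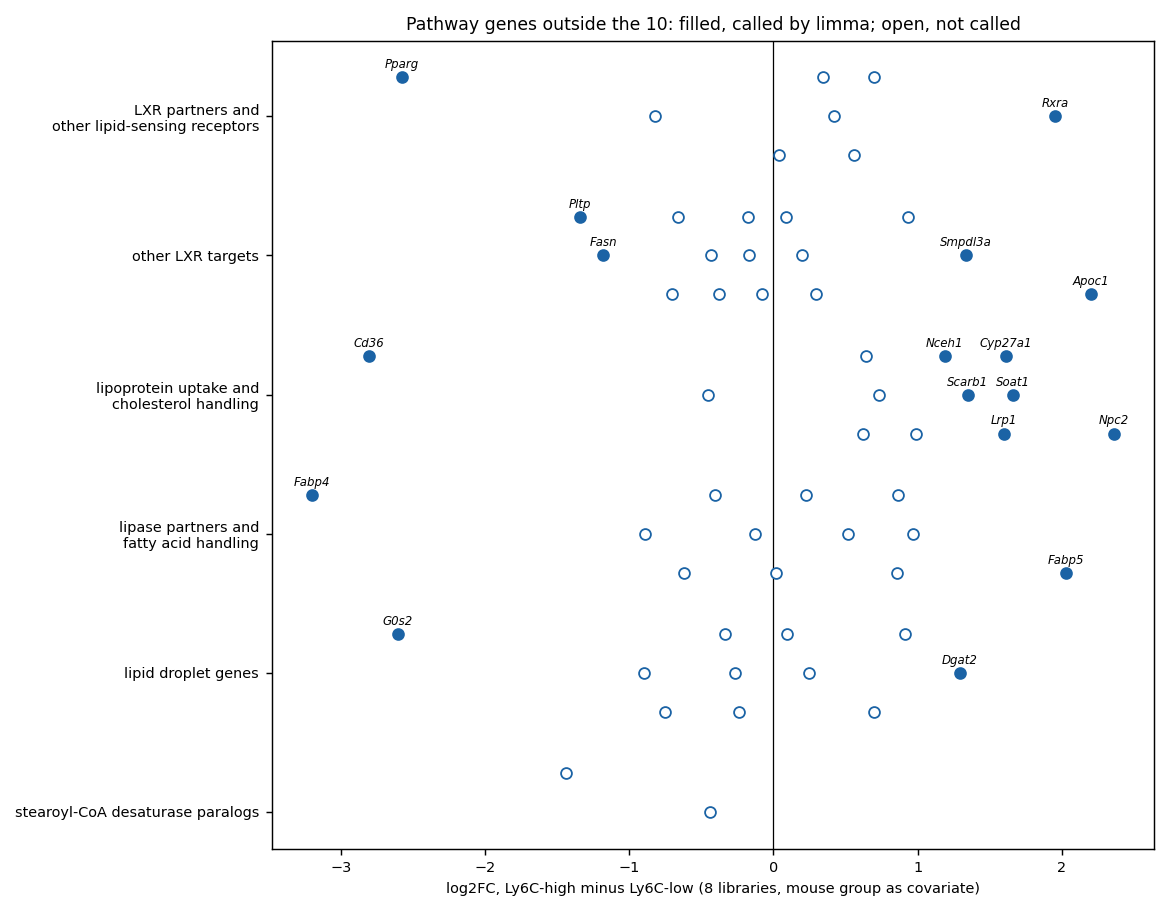
Limma log2FC of Ly6Chigh against Ly6Clow MCs over 8 libraries (x axis) for 60 pathway genes outside the 10, by list (y axis). Filled and named points were called, 11 higher and 6 lower, and the lipoprotein uptake and cholesterol list holds 6 of the higher ones. Of all genes 5.37% were called higher and 6.76% lower.

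None of the 61 genes was called by limma in T2DM against CT, T1DM against CT or T2DM against T1DM. Of all genes 0.297%, 0.0% and 0.588% were called there. An unadjusted p under 0.05 was found for 13, 3 and 16 of the 61 (8.94%, 3.34% and 14.3% of all genes). None of the 61 had a called difference between the diabetic and the CT subset difference (0.0% of all genes). There 4 had an unadjusted p under 0.05 (6.58% of all genes). In T2DM Ly6Chigh MCs, Srebf2, the sterol-sensing factor that drives cholesterol synthesis genes, was at a log2 value of 5.59 against 6.77 and 6.56 in the CT replicates, Pparg at 2.16 against 3.47 and 3.60, and Pltp at 4.40 against 5.36 and 5.52. Lmf2, named as a lipase maturation factor, was at 5.96 against 4.16 and 4.95, and its CT Ly6Clow replicates stood as far apart as 4.58 and 5.81. In T2DM Ly6Clow MCs, where Lpl was high, the fatty acid transporter Slc27a1 was at 4.03 against 2.97 and 3.04, Cd36 at 8.54 against 7.87 and 7.62, and Fabp4 at 4.34 against 5.29 and 5.19. Apoc4 and Nceh1, the other named genes there, were 0.90 and 0.69 higher, beside CT replicates that were 1.08 and 0.66 apart.

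Genes nearest to the remaining members were of mixed kinds. Apoe had Amd2, C3ar1, the receptor of complement C3a, and Dock4 at distances of 1.20 to 1.40. Lpl had Sh3bp5l, Spon1 and Zmym3 at 0.86 to 1.23, and Sh3bp5l stood at 5.17 in T2DM Ly6Clow MCs against 3.32 to 3.42 in the other Ly6Clow libraries. Plin2 had Kxd1, H13 and Cox6b1 at 0.22 to 0.25, and Scd2 had Plekha2, Smpdl3b and 4930503L19Rik at 0.52 to 0.55. Abcg1 had Cnot8, Rnf44 and Zfp319 at 0.24 to 0.29, Nr1h2 had Capn1, Tmx1 and Hbs1l at 0.27 to 0.32, and Nr1h3 had Mettl26, Scrib and Tmem69 at 1.15 to 1.33. A small distance is easier to reach for a gene of small range, so distances are not ranked between members.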

How the data were processed

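Bulk RNA-Seq of sorted blood MCs was taken from the deposited table of 8 libraries, assigned to groups by the sample labels. Per the labels, the authors used mm10, R (version 3.6.1), tximport (version 1.12.3) and Kallisto (version 0.45), and they deposited log2 expression values of 16486 genes. The study's methods name gene counts and TPM as the output of tximport. On the linear scale the deposited values summed to 838696 to 1090019 per library, close to the sum of TPM. Which of them the log2 values were made from, the low-value filter and any adjustment between sequencers are not given in the sources used here. The members and lists were chosen with earlier results of these data known.

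No further normalization was applied. Comparisons with replicates used limma 3.58.1 (lmFit, eBayes with a variance trend) in R 4.3.3, fitted on all genes with Benjamini-Hochberg adjustment, and the criteria of the study (adjusted p under 0.01, absolute log2FC above 1). The 6 tests were the subsets in CT MCs, the subsets in all 8 libraries (mouse group as covariate), T2DM and T1DM against CT and T2DM against T1DM with subset as covariate, and the difference of the subset effect between diabetic and CT mice. The other comparisons had 1 library on a side and were not tested. Genes past 2-fold were counted there. Named were the 10 members, pathway genes called between subsets, per subset the 5 pathway genes with the largest T2DM difference (mean log2 value of at least 3), the 3 nearest genes of each member and marker genes. Some genes that this rule names are not reported here, but they entered all tests, counts and sums.

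On simulated data the tests recovered 183 to 200 of 200 genes changed by 2 on the log2 scale, drawn from genes that were not of low value. The simulated noise came only from the difference of the CT Ly6Chigh replicates, with no other variation between subsets or mouse groups. This recovery therefore does not give the power of the tests on the real libraries. Alternatives were a filter at a mean log2 value of 1, adding 1 before log2, quantile normalization, no variance trend, an adjusted p limit of 0.05, the replicate block and leaving out libraries or mouse groups. Figures were drawn in Python 3.11.15 with matplotlib 3.10.9. Promoters and positions are from RefSeq (GRCm38.p6).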

Additional observations from a re-analysis of the deposited data

Results flagged for a closer look

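Some diabetic libraries lay outside both CT libraries of their subset, by more than these differed from each other, and on opposite sides in the 2 subsets or the 2 diabetes models. Each rests on single diabetic libraries, and these differences between single libraries were not tested. Over all genes the diabetic mean differed little from the CT mean (SD 0.272, against 0.743 for T2DM minus T1DM, which averages fewer libraries). If the libraries were aligned between sequencers, T1DM and T2DM would tend to lie on opposite sides of CT. Whether they were aligned was not tested, and the opposite signs against CT are given as values only. The direct differences of T2DM and T1DM libraries, run on the same sequencer, are given above. The diabetic mean minus the CT mean was 0.10 for Plin2, 0.027 for Scd1 and 0.37 for Lpl. It was larger in size for Apoe (1.26), Nr1h3 (-1.03) and Scd2 (-0.55), with both models on the same side of CT in Ly6Chigh MCs. Groups of at most 2 libraries allowed no search for outlying libraries.

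Lpl was -0.41 in T2DM Ly6Chigh MCs and 2.49 in T2DM Ly6Clow MCs against CT on the log2 scale. It was -0.31 in T1DM Ly6Clow MCs, on the other side from T2DM Ly6Clow MCs. Its Ly6Chigh minus Ly6Clow difference was -1.87 in T2DM mice, opposite to 1.02 in CT mice. Scd1 was 0.97 in T1DM Ly6Chigh MCs and -0.25 in T1DM Ly6Clow MCs against CT, and -0.69 in T2DM Ly6Chigh MCs. Plin2 was -0.32 in T1DM Ly6Chigh and 0.21 in T2DM Ly6Chigh MCs against CT.

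With both diabetes models together, limma gave a diabetic minus CT subset difference of -1.44 ± 1.04 (SE, adjusted p = 0.870) for Lpl, 0.22 ± 0.64 (adjusted p = 0.973) for Scd1 and -0.32 ± 0.27 (adjusted p = 0.892) for Plin2.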

How the results depend on the processing

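In CT MCs, the 3 members and 11 pathway genes called between the subsets became 0 and 0 without the variance trend, and 0 and 0 (lowest and highest) when any 1 CT library was left out. The 581 calls among all genes became 1089 with the low-value filter, 1936 at an adjusted p limit of 0.05 and 0 in the settings that lost the members. Over 8 libraries 3 or 4 members were called under every alternative. The count of 49 genes called in T2DM against CT was 9 without the trend, 30 without T1DM, 17 to 21 without 1 CT library and 105 at 0.05. Apoe alone among the members was called there, and 0 members without the trend. In T2DM against T1DM, 1 member in place of 0 (Apoe, limma adjusted p = 0.00896 with the filter) was called with the low-value filter and 1 at 0.05, and 97 calls among all genes became 26 without the trend, 57 without CT Ly6Clow replicate 1 and 253 at 0.05. Under quantile normalization, which moved the CT median of all genes from -0.087 to 0.020, 1 member in place of 2 was past 2-fold in T2DM against T1DM Ly6Chigh MCs. The cause of these changes was not tested.

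The CT replicate numbers did not pair the libraries, as replicate 1 minus 2 differences of the subsets correlated at 0.0089 over genes. With the replicate block, 0 members and 0 pathway genes were called in CT MCs, and diabetic groups have only replicate 1.

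Signs that turned belonged to differences that were not called. When 1 CT library was left out, the CT subset difference ran from -0.14 to 0.56 for Nr1h3 and from -0.19 to 0.29 for Nr1h2, turning without CT Ly6Clow replicate 1 and CT Ly6Chigh replicate 2. Over 8 libraries that of Nr1h2 ran from -0.10 to 0.091 (-0.020 without CT Ly6Clow replicate 1), and Plin2 in T1DM against CT from -0.12 to 0.0099. The diabetic minus CT subset difference ran from -0.34 to 0.14 for Nr1h2 and from -0.27 to 0.095 for Scd2. Under quantile normalization Nr1h2 was -0.067 in CT MCs and -0.11 over 8 libraries, where it was -0.044 without T2DM. The diabetic minus CT subset difference also turned without T1DM for Nr1h2 (0.098) and Scd1 (-0.78), and without T2DM for Abca1 (-0.29), Lpl (0.0079) and Mylip (-0.079). Counts are missing, so the precision of low values such as those of Nr1h3 is unknown.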
